A study of Rattus norvegicus with 15 samples.

Results

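Follistatin, the inhibin beta chains, the activin type 2 receptors and Bambi are followed here through rat liver RNA sequencing. They are 8 of the 21576 genes in the deposited table, picked by symbol: Fst, Inhba, Inhbb, Inhbc, Inhbe, Acvr2a, Acvr2b and Bambi. All 8 passed the filter on low counts, which left 13163 genes. Fst was brought forward because it was among the genes with the largest HFD over CON differences in these same libraries, and its relatives were added by name. Differences between HFD and CON are therefore given for these genes as a description, with no test, as are those of Fst and Inhbb between ZXD and CON.

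The samples were livers of male Sprague-Dawley rats, 5 libraries in each of 3 groups. ZXD rats were kept on a lipid-raising feed and were dosed orally with Zexie Decoction, a herbal preparation of Alisma and Atractylodes rhizomes, at a daily 2.2 g/kg from the end of week 4 for 4 more weeks. HFD rats ate that feed for the same time and were given saline. CON rats ate normal chow. The feed held propylthiouracil (0.2%), sodium cholate (0.3%), cholesterol (2%), lard (7%), egg yolk (8.3%), sucrose (16.7%) and base forage (66%); propylthiouracil blocks thyroid hormone synthesis, so ZXD and HFD rats alike received a thyroid blocker that CON rats did not. The labels count 10 rats to a group, name no batch and give no age, and they do not say which rat each library came from, so p-values measure the spread between these libraries, which may be technical.

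Activins are pairs of inhibin beta chains, secreted ligands of the TGF-beta family. They bind a type 2 receptor, which engages a type 1 receptor that phosphorylates SMAD2 and SMAD3. The chains of Inhba and Inhbb form activin A and activin B, while Inhbc and Inhbe are made mainly by hepatocytes. Follistatin wraps around activins and keeps them from their receptors, and the liver is a known source of it in blood. Bambi is a receptor decoy with no kinase domain.

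Total counts were 12688915 to 13532245 in ZXD, 12552449 to 13687385 in HFD and 12972523 to 14228052 in CON. A count of 3 stood for 0.183 to 0.234 CPM (counts scaled by TMM-adjusted library size) in ZXD, 0.194 to 0.222 CPM in HFD and 0.256 to 0.285 CPM in CON, for counting error only. The tissue label was checked with 12 hepatocyte markers, all of which were above 0 in every library. Their summed level was 71664 to 124699 CPM in ZXD, 92921 to 124453 CPM in HFD and 180363 to 226849 CPM in CON. TMM factors were 1.01 to 1.28 in ZXD, 1.07 to 1.13 in HFD and 0.793 to 0.867 in CON. With library totals in place of TMM, the median difference over all genes was 0.46 in place of 0.03 (log2) in ZXD over CON, and 0.44 in place of 0.02 in HFD over CON, so differences from CON are relative to the TMM scale. In these whole-liver samples, fewer cells of a type and less RNA per cell cannot be told apart.

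Promoters are shown for Inhbb, which was high in the livers where follistatin was high, and for Inhbe, which was low in them. Each is the 250 bases before the annotated start, from RefSeq (GRCr8), printed 5′ to 3′ on the strand of the gene, with capitals at matches to the motifs named after them. The RefSeq promoter table matched 7 of the 8 genes by symbol; Fst was not matched.
Inhbb, chr13:33089374-33089623, minus strand: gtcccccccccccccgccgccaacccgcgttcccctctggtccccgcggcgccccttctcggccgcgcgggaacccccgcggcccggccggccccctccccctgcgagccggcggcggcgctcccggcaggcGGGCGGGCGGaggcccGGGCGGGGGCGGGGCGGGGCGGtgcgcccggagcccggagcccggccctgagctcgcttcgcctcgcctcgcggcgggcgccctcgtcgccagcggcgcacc
Inhbe, chr7:65064520-65064769, minus strand: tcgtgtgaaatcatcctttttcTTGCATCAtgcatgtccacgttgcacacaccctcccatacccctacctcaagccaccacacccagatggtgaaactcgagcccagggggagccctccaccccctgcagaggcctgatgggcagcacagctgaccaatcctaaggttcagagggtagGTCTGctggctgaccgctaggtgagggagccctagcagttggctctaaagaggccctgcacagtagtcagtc
The Inhbb promoter is 86.8% G and C, with 44 CpG pairs and 6 matches to the GC box GGGCGG, some of which overlap. The Inhbe promoter is 57.6% G and C, with 4 CpG pairs. The median over all 33469 promoters of the table was 51.2% G and C and 5 CpG pairs. Inhbe held 1 match to the ATF4 and C/EBP composite TGATGCAA, on the opposite strand, and 1 to the SMAD box CAGAC, also on the opposite strand. Searched on both strands, the GC box was in 30.5% of all promoters, TGATGCAA in 0.693% and CAGAC in 42.9%. Neither promoter held the AP-1 site TGANTCA, the cAMP element TGACGTCA, the forkhead site GTAAACA or the TATA box TATAAA, which were in 6.34%, 1.59%, 3.21% and 12.9% of all promoters. The motifs were chosen with the expression results known, and a match is a run of letters, not a shown binding site.

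Follistatin RNA was close to absent in chow livers and uneven in livers of the 2 diet groups, where each library was either near 0.5 CPM or above 6 CPM. Fst was at 0.482, 0.624, 7.62, 16.0 and 0.435 CPM in ZXD 1 to ZXD 5. It was at 0.518, 6.84, 21.0, 0.341 and 11.5 CPM in HFD 1 to HFD 5. In CON it was at 0, 0.0892, 0, 0.266 and 0.0852 CPM, from 0, 1, 0, 3 and 1 counts. ZXD 3, ZXD 4, HFD 2, HFD 3 and HFD 5 were high. The other 5 diet libraries held 5 to 8 counts each, above every CON library but by few reads, so neither diet group overlapped CON. The means were 5.03 ± 6.86 CPM in ZXD, 8.05 ± 8.64 CPM in HFD and 0.0881 ± 0.109 CPM in CON (SD, n = 5 each), and in both diet groups the SD exceeded the mean.

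**Figure D1:**
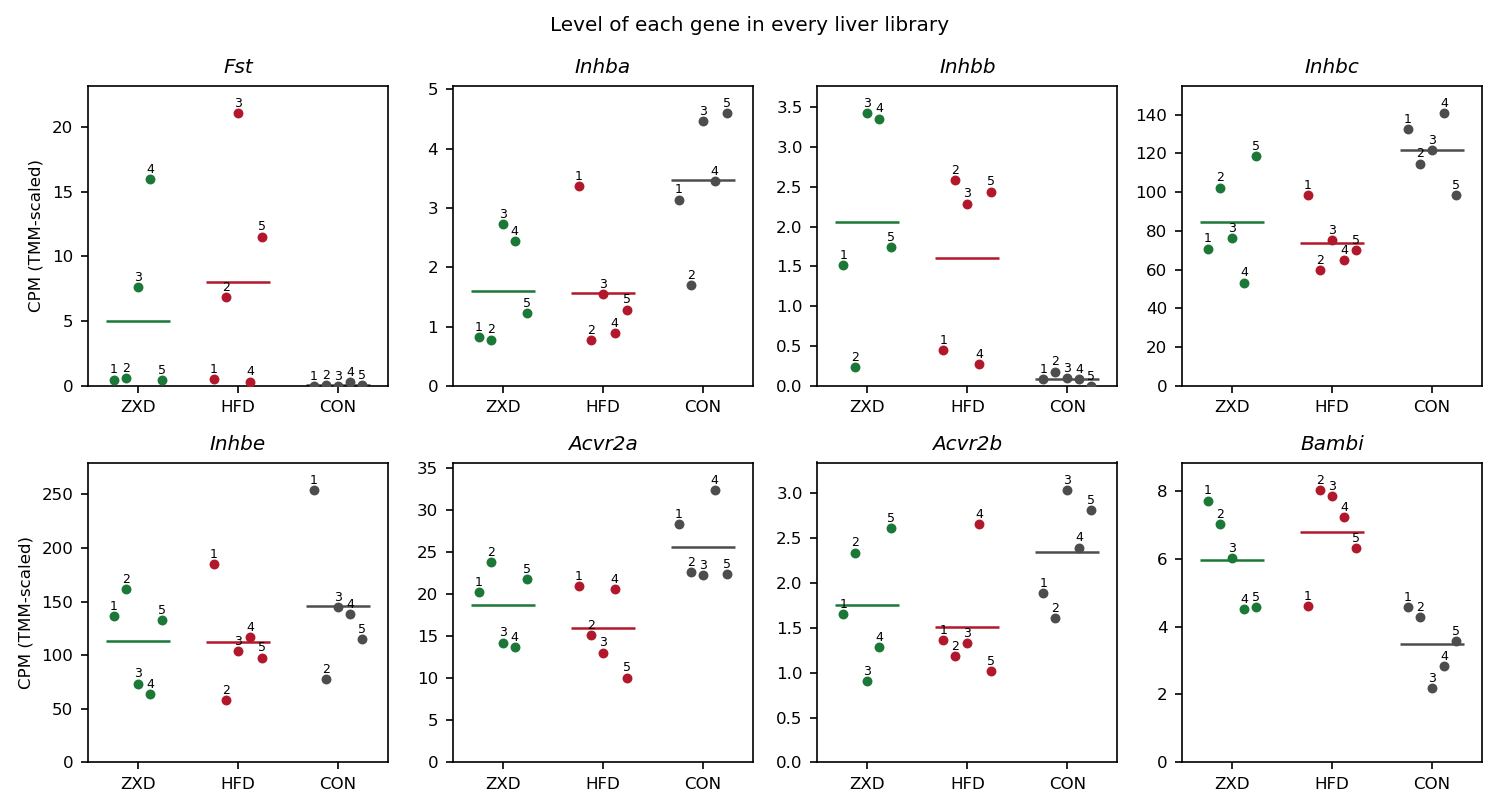
Level of each of the 8 genes in CPM on the TMM scale, by group; points are libraries with their replicate number, and bars are group means. Fst lies at 6.84 CPM or more in ZXD 3, ZXD 4, HFD 2, HFD 3 and HFD 5 and at 0.624 CPM or less in every other library.

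The summed counts of Fst were 392 in ZXD, 566 in HFD and 5 in CON. Per scaled read this was 61.0-fold higher in ZXD than in CON, with a 95% interval of 25.9 to 189 that covers counting error only. It was 87.0-fold higher in HFD than in CON, with a counting interval of 37.1 to 269. These intervals leave out the spread between livers, which was far larger. Because Fst reached 10 counts in none of the CON libraries, it passed the filter through diet libraries alone.

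Inhbb, the chain of activin B, showed a like split. It was at 1.51, 0.234, 3.42, 3.36 and 1.74 CPM in ZXD 1 to ZXD 5. In HFD 1 to HFD 5 it was at 0.453, 2.58, 2.29, 0.273 and 2.44 CPM. In CON it was at 0.0897, 0.178, 0.0950, 0.0887 and 0 CPM, from at most 2 counts. No diet library overlapped the CON libraries, but the margin was a few reads: ZXD 2 held 3 counts and HFD 4 held 4, against 2 in CON 2. The 5 libraries with the most Fst were also the 5 with the most Inhbb among the 10 diet libraries, while ZXD 1 and ZXD 5 had intermediate Inhbb at low Fst. The summed counts were 153 in ZXD, 115 in HFD and 5 in CON, a ratio of 23.8 for ZXD over CON (counting interval 9.98 to 74.4) and of 17.7 for HFD over CON (counting interval 7.36 to 55.5). Inhbb too passed the filter through diet libraries alone.

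Inhba, the chain of activin A, went the other way on average. It was at 0.826, 0.780, 2.73, 2.44 and 1.23 CPM in ZXD 1 to ZXD 5. It was at 3.37, 0.768, 1.55, 0.886 and 1.29 CPM in HFD 1 to HFD 5, and at 3.14, 1.69, 4.47, 3.46 and 4.60 CPM in CON 1 to CON 5. The groups overlapped, since HFD 1 lay within the CON range and CON 2 within the diet range.

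The liver forms were the most abundant of the 8 genes per base of transcript. In FPKM, the length-scaled unit of the deposited table, the order of the group medians in ZXD was Inhbe at 134 FPKM, Inhbc at 42.8 FPKM, Acvr2a at 9.62 FPKM, Bambi at 7.93 FPKM, Acvr2b at 0.980 FPKM, Inhba at 0.844 FPKM, Inhbb at 0.591 FPKM and Fst at 0.322 FPKM. In HFD the medians were 106 FPKM for Inhbe, 40.0 FPKM for Inhbc, 9.20 FPKM for Bambi, 7.30 FPKM for Acvr2a, 3.82 FPKM for Fst, 0.937 FPKM for Inhba, 0.793 FPKM for Acvr2b and 0.789 FPKM for Inhbb. In CON they were 104 FPKM for Inhbe, 49.7 FPKM for Inhbc, 8.57 FPKM for Acvr2a, 3.68 FPKM for Bambi, 1.77 FPKM for Inhba, 1.05 FPKM for Acvr2b, 0.0374 FPKM for Fst and 0.0236 FPKM for Inhbb. Inhbe lay above Inhbc, and Inhbc above the next gene, in all 5 libraries of each group, with no overlap of their ranges in a group. Below them, the neighbours whose ranges did not overlap were Bambi and Acvr2b in ZXD, and Acvr2a and Bambi as well as Acvr2b and Fst in CON; all other neighbours overlapped.

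Together Inhbc and Inhbe made up 97.1% to 99.7% of the FPKM of the 4 beta chains in ZXD, 98.5% to 99.5% in HFD and 98.2% to 99.3% in CON. The pair lie beside each other in the deposited table, in the same direction, with 5166 bases between them; the genome build of the table is not given in the sources used here. Inhbe was 1.81 to 3.62 times Inhbc in ZXD, 1.84 to 3.53 times in HFD and 1.27 to 3.62 times in CON.

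Set against the chains it binds, follistatin outweighed activin A and B RNA in the livers where it was high. Fst FPKM exceeded the sum of Inhba and Inhbb FPKM in 2 of 5 ZXD libraries, 3 of 5 HFD libraries and 0 of 5 CON libraries. Those were ZXD 3, ZXD 4, HFD 2, HFD 3 and HFD 5, where the ratio of Fst to that sum was 1.37 to 6.22. In the other 10 libraries it was at most 0.553. The sum itself was 0.583 to 3.38 FPKM in ZXD, 0.705 to 2.61 FPKM in HFD and 0.941 to 2.57 FPKM in CON, so its ranges overlapped while those of Fst did not overlap between diet and chow.

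**Figure D2:**
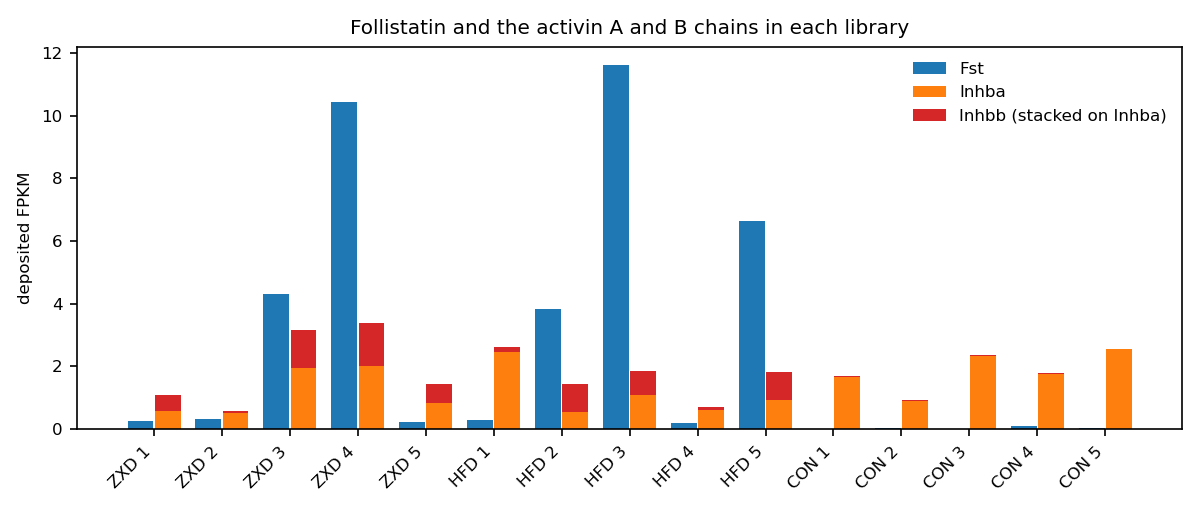
Deposited FPKM of Fst beside the stacked FPKM of Inhba and Inhbb in each library. The Fst bar is the taller in ZXD 3, ZXD 4, HFD 2, HFD 3 and HFD 5, and the shorter in the other 10 libraries.

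Levels of Inhbc, a hepatocyte chain, were 70.9, 102, 76.4, 53.3 and 119 CPM in ZXD 1 to ZXD 5. They were 98.5, 59.7, 75.04, 65.0 and 70.2 CPM in HFD 1 to HFD 5, and 132, 115, 122, 141 and 98.5 CPM in CON 1 to CON 5. The HFD range met the CON range only at HFD 1 and CON 5, which were equal to 3 digits, and ZXD 2 and ZXD 5 lay inside the CON range.

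Inhbe, the other hepatocyte chain, was at 136, 162, 73.5, 63.9 and 133 CPM in ZXD 1 to ZXD 5. It was at 185, 58.3, 104, 117 and 97.7 CPM in HFD 1 to HFD 5 and at 254, 77.4, 145, 138 and 115 CPM in CON 1 to CON 5. All 3 groups overlapped widely. Its spread within groups was large, with means of 114 ± 42.6 CPM in ZXD, 112 ± 46.1 CPM in HFD and 146 ± 66.0 CPM in CON (SD, n = 5 each).

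Acvr2a, a type 2 receptor of activins and of several BMPs, was at 20.3, 23.9, 14.3, 13.7 and 21.8 CPM in ZXD 1 to ZXD 5. It was at 21.0, 15.1, 13.1, 20.6 and 10.1 CPM in HFD 1 to HFD 5 and at 28.4, 22.7, 22.3, 32.5 and 22.4 CPM in CON 1 to CON 5. All HFD libraries lay below all CON libraries on this scale, and ZXD 2 alone of the ZXD libraries reached the CON range.

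Its relative Acvr2b was scarcer, from 13 to 39 counts in a library. It was at 1.65, 2.34, 0.908, 1.28 and 2.61 CPM in ZXD, at 1.36, 1.19, 1.33, 2.66 and 1.02 CPM in HFD and at 1.88, 1.61, 3.04, 2.39 and 2.81 CPM in CON, replicates 1 to 5 in each. The groups overlapped, and HFD 4 stood far above the other HFD libraries.

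The decoy Bambi was at 7.71, 7.02, 6.01, 4.52 and 4.57 CPM in ZXD 1 to ZXD 5. It was at 4.60, 8.03, 7.83, 7.23 and 6.30 CPM in HFD 1 to HFD 5 and at 4.58, 4.28, 2.19, 2.84 and 3.58 CPM in CON 1 to CON 5. Every HFD library lay above every CON library, HFD 1 by a small margin, while ZXD 4 and ZXD 5 fell just under CON 1. The means were 5.96 ± 1.43 CPM in ZXD, 6.80 ± 1.40 CPM in HFD and 3.49 ± 0.993 CPM in CON (SD, n = 5 each).

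The split of Fst among the 10 diet libraries, 2 ZXD and 3 HFD libraries high and the rest low, ran through most of the other genes. The 5 libraries highest in Fst were the 5 lowest in Inhbe, the 5 lowest in Acvr2a and the 5 lowest in Acvr2b, besides being the 5 highest in Inhbb. For Acvr2b the margin was thin, with HFD 3 at 1.33 CPM and HFD 1 at 1.36 CPM, and on library totals 4 of the 5 were among its lowest. Of the 5, 4 were among the highest in Inhba, 3 among the lowest in Inhbc and 2 among the highest in Bambi. This way of reading the order was chosen after the values were seen, and so has no test. The same 5 libraries were the highest for 3.73% of the 13163 genes and the lowest for 6.21%, so the split reached over many genes besides these.

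**Figure D3:**
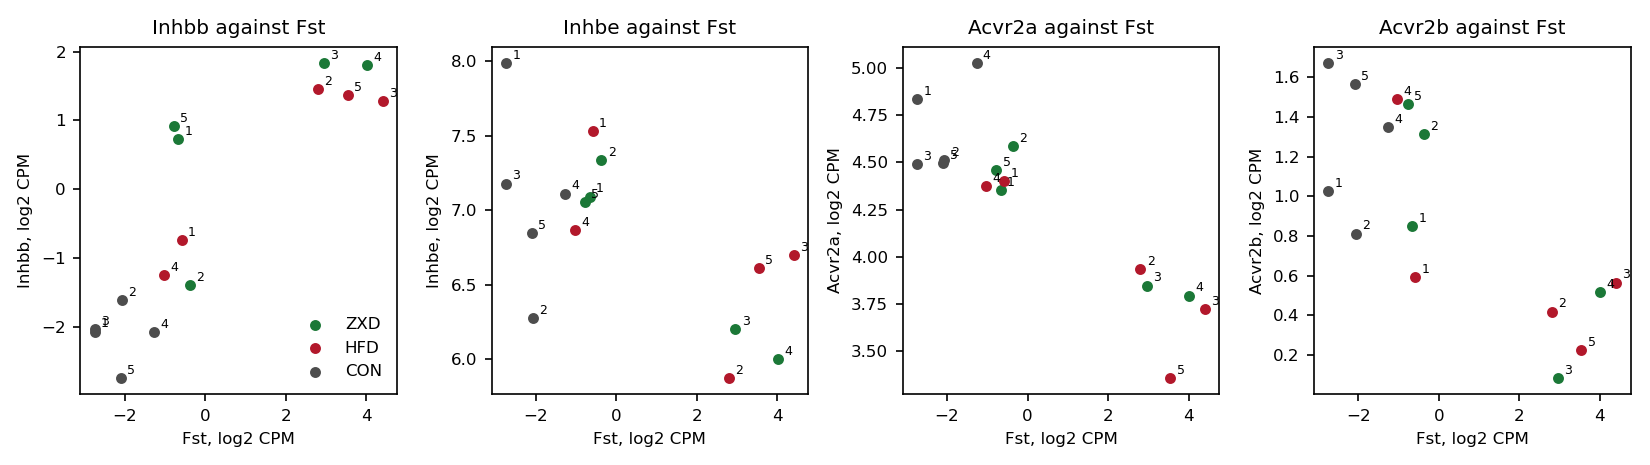
Log2 CPM of Inhbb, Inhbe, Acvr2a and Acvr2b against log2 CPM of Fst; points are libraries with replicate numbers, coloured by group. At the right of each panel stand ZXD 3, ZXD 4, HFD 2, HFD 3 and HFD 5, which are high in Inhbb and low in the other genes relative to the remaining diet libraries.

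Sums of cell type markers were set beside this split, and none followed it across all 10 diet libraries. The summed level of 10 endothelial markers was 679, 648, 595, 508 and 648 CPM in ZXD 1 to ZXD 5, 407, 302, 104, 349 and 217 CPM in HFD 1 to HFD 5, and 108 to 414 CPM in CON. Within each diet group the endothelial sum followed the split. ZXD 3 and ZXD 4 were the lowest of ZXD, and HFD 2, HFD 3 and HFD 5 the lowest of HFD. Across the 2 diet groups it did not, since ZXD 3 and ZXD 4 lay above every HFD library. No endothelial marker was at 0 in any library.

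The summed level of 12 macrophage and Kupffer cell markers was 1007, 758, 1913, 1641 and 1667 CPM in ZXD 1 to ZXD 5, 728, 1329, 908, 450 and 882 CPM in HFD 1 to HFD 5, and 253 to 893 CPM in CON. HFD 2, HFD 3 and HFD 5, high in Fst, were the 3 highest of HFD, and ZXD 3 was the highest of ZXD, while ZXD 5, low in Fst, lay just above ZXD 4. None of these markers was at 0 in any library.

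The summed level of 10 T and NK cell markers was 18.2, 7.09, 56.4, 94.5 and 33.1 CPM in ZXD 1 to ZXD 5, 23.8, 50.0, 14.6, 9.88 and 50.2 CPM in HFD 1 to HFD 5, and 3.33 to 6.91 CPM in CON. ZXD 3 and ZXD 4 were the highest of ZXD and HFD 2 and HFD 5 the highest of HFD, while HFD 3, with the most Fst of any library, lay below HFD 1, where Fst was low. Klrb1, Cd3d and Cd5 of this list were at 0 in some libraries.

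The summed level of 13 stellate and fibroblast markers was 441, 315, 383, 720 and 487 CPM in ZXD 1 to ZXD 5, 299, 617, 212, 287 and 691 CPM in HFD 1 to HFD 5, and 280 to 514 CPM in CON, with no marker at 0. The 3 highest of all 15 libraries were ZXD 4, HFD 5 and HFD 2, all high in Fst, and the lowest was HFD 3, also high in Fst. Cholangiocyte marker sums were 40.8 to 88.4 CPM in ZXD, 51.1 to 99.3 CPM in HFD and 18.8 to 29.1 CPM in CON, highest in ZXD 4 among ZXD and in HFD 2 and HFD 5 among HFD, and second lowest of ZXD in ZXD 3. Krt7, Krt23 and Cldn4 of that list were at 0 in some libraries. Of the hepatocyte sums, that of ZXD 4 was the lowest of ZXD, and ZXD 3 lay just under ZXD 5, at 103423 against 103566 CPM. In HFD the highest were HFD 2 and HFD 5, and the lowest was HFD 3. The part of any of these cells in the level of the 8 genes was not tested.

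**Figure D4:**
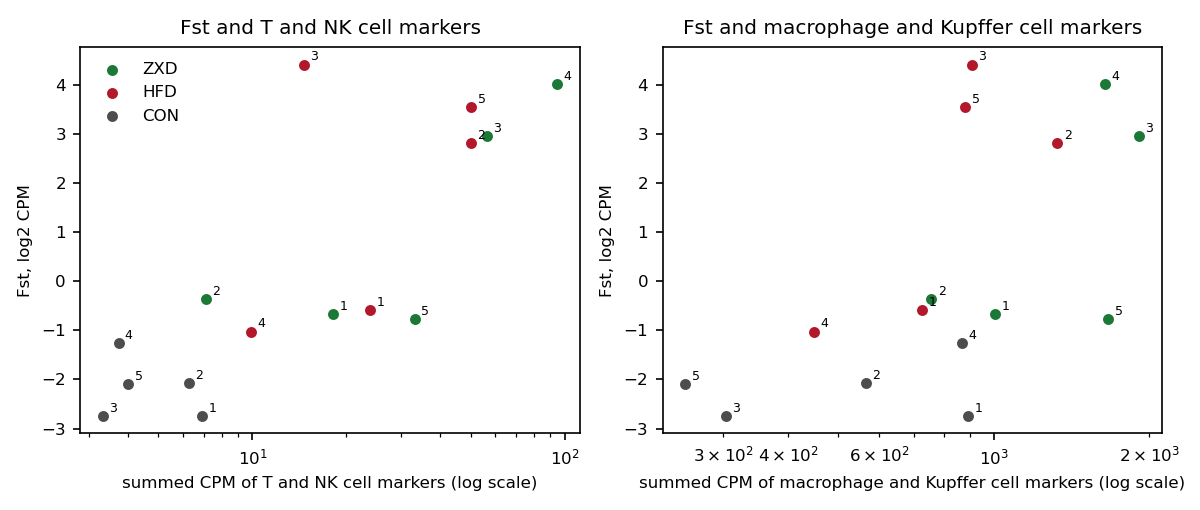
Log2 CPM of Fst against the summed CPM, on a log axis, of T and NK cell markers (left) and of macrophage and Kupffer cell markers (right); points are libraries with replicate numbers. HFD 3 has high Fst at 14.6 CPM of T and NK markers, and ZXD 5 has low Fst at 33.1 CPM.

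The question of ZXD against HFD was whether the decoction moved these genes on the diet. None of the 8 passed, with 0 of 8 called at an edgeR adjusted p under 0.05, and 0% of all 13163 genes were called; 2167 genes had an unadjusted p under 0.05. DESeq2 called 216 genes higher and 132 lower and limma voom 0, and none of the 8 was called by either. All 8 overlapped between the groups, while 2.14% of all genes lay wholly higher and 1.53% wholly lower. The interval of the difference was wide where the libraries were split. For Fst the log2 fold change of ZXD over HFD was -0.67 (95% interval -2.90 to 1.56, edgeR adjusted p = 0.761). It was 0.07 without HFD 3 and -3.95 without ZXD 3 and ZXD 4, still not called. For Inhbb it was 0.36 (95% interval -1.01 to 1.73, edgeR adjusted p = 0.794), and -0.45 without ZXD 3 and ZXD 4.

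For the hepatocyte chains the intervals of ZXD over HFD were narrower. On the log2 scale Inhbc differed by 0.19 (95% interval -0.22 to 0.61) and Inhbe by 0.02 (95% interval -0.72 to 0.76), and edgeR gave adjusted p = 0.624 and 0.986. Inhba had 0.03 (95% interval -0.97 to 1.02), Acvr2a 0.23 (95% interval -0.22 to 0.69), Acvr2b 0.21 (95% interval -0.53 to 0.96) and Bambi -0.19 (95% interval -0.69 to 0.31), with edgeR adjusted p = 0.981, 0.586, 0.773 and 0.696. With 5 libraries a group, differences of the sizes inside these intervals remain possible, and the misses do not show that the groups were alike.

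In ZXD over CON, Fst and Inhbb lay wholly above the CON libraries, in some ZXD libraries by few reads. Of the other 6 members Bambi was called higher and none lower. The background was 32.7% of all tested genes called, 17.9% higher and 14.8% lower, with 8.20% wholly above CON and 9.79% wholly below. Fst was first noticed against these CON libraries, and Fst and Inhbb passed the filter through diet libraries alone, so their differences from CON are given as a description, with no p. The fitted log2 fold change was 5.68 (SE 1.58) for Fst and 4.39 (SE 0.89) for Inhbb. Without ZXD 3 and ZXD 4 together, it was 2.40 for Fst and 3.57 for Inhbb. Both fitted values depend on the few counts in CON, for which the ratios of summed counts above are the plainer measure.

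Bambi rose by 0.77 on the log2 scale in ZXD over CON (SE 0.24, edgeR adjusted p = 0.0255). The call was lost without CON 3, CON 4, ZXD 1 or ZXD 2, where it was 0.63, 0.70, 0.66 and 0.68 (log2), with edgeR adjusted p of 0.0727, 0.0649, 0.0625 and 0.0565, and without ZXD 3 and ZXD 4 together (0.88, edgeR adjusted p = 0.0556). Inhbc narrowly missed at -0.53 (SE 0.20, edgeR adjusted p = 0.0508). It was called lower with RLE size factors, the 1 CPM filter, DESeq2 or limma voom (adjusted p = 0.0459, 0.0498, 0.0291 and 0.0473) and without HFD 1, ZXD 2 or ZXD 5 (-0.53, -0.63 and -0.68, edgeR adjusted p = 0.0420, 0.0296 and 0.0180). In the other 18 of 25 alternatives Inhbc was not called. Among those were library totals (-0.12), the replicate block (edgeR adjusted p = 0.0845) and leaving out ZXD 3 and ZXD 4 together (-0.32, edgeR adjusted p = 0.277). Inhba was at -1.11 (SE 0.46, edgeR adjusted p = 0.0794), called lower by DESeq2 (adjusted p = 0.0482) and without ZXD 3 and ZXD 4 (-1.87, edgeR adjusted p = 0.0339).

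The remaining receptors and Inhbe did not pass in ZXD over CON. Acvr2a was at -0.45 (SE 0.21, edgeR adjusted p = 0.120), Acvr2b at -0.42 (SE 0.35, edgeR adjusted p = 0.381) and Inhbe at -0.36 (SE 0.35, edgeR adjusted p = 0.450). On library totals these were -0.04, -0.02 and 0.04, so the sign of Inhbe turned.

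In HFD over CON, given as a description, the fitted log2 fold changes were 6.35 (SE 1.58) for Fst, 4.03 (SE 0.89) for Inhbb and 0.96 (SE 0.24) for Bambi. They were -1.14 (SE 0.47) for Inhba, -0.72 (SE 0.20) for Inhbc, -0.68 (SE 0.22) for Acvr2a, -0.63 (SE 0.35) for Acvr2b and -0.38 (SE 0.35) for Inhbe. Of the 8, 3 lay wholly above and 1 wholly below the CON libraries, beside 6.59% and 8.46% of all genes; nothing is read from that count. On library totals the lower values shrank to -0.71 for Inhba, -0.29 for Inhbc, -0.26 for Acvr2a and -0.22 for Acvr2b, and Inhbe turned to 0.05. Without HFD 2 and HFD 5, the HFD libraries with the highest T and NK sums, the values were 6.20 for Fst, 3.34 for Inhbb, 0.90 for Bambi, -0.84 for Inhba, -0.61 for Inhbc, -0.49 for Acvr2a, -0.39 for Acvr2b and -0.11 for Inhbe. That Fst value rests mainly on HFD 3, which stayed in with 285 counts, beside 8 in HFD 1 and 5 in HFD 4. It is thus unlike the fit without ZXD 3 and ZXD 4, which left out every ZXD library high in Fst. ZXD over CON and HFD over CON share the CON libraries, so their likeness is no result of its own.

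**Figure D5:**
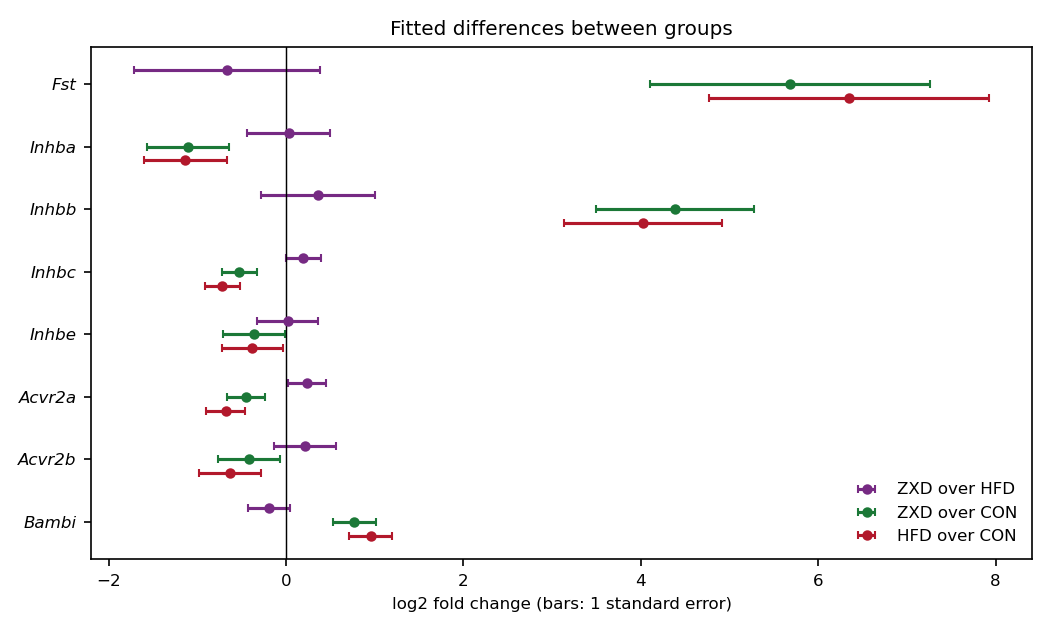
Fitted log2 fold change of each of the 8 genes in ZXD over HFD, ZXD over CON and HFD over CON; bars are 1 standard error from the edgeR fit, and those of HFD over CON are a description. Fst and Inhbb have the largest values against CON, 4.03 to 6.35, with the widest bars, and all 8 values of ZXD over HFD lie between -0.67 and 0.36.

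Other genes of the pathway were counted in lists written with earlier results of these data known. Of 93 entries 90 were found among the deposited genes, and 67 had enough counts to be tested. In ZXD over HFD 0 of 67 were called, as in all genes. In ZXD over CON 13 rose and 5 fell (26.9% called, against 32.7% of all genes), with a median log2 fold change of 0.10 beside 0.03 for all genes. In HFD over CON 10 rose and 5 fell (22.4%, against 21.0% of all genes), with a median of -0.02 beside 0.02. On library totals these counts were 29 and 1 in ZXD over CON and 17 and 1 in HFD over CON. Without ZXD 3 and ZXD 4 they were 4 and 2 in ZXD over CON, and without HFD 2 and HFD 5 they were 5 and 2 in HFD over CON. The higher count in ZXD over CON was 7 without CON 3 and 8 without CON 5. In HFD over CON the higher count was 5 without CON 5 or HFD 2, and 6 without CON 2, CON 3, CON 4 or HFD 5, and the lower count was 3 without any 1 of those 6. The counts of each list below stand beside all-gene shares of 17.9% higher and 14.8% lower in ZXD over CON. In HFD over CON those shares were 10.0% and 10.9%. The lists overlap in Smad6, Smad7, Skil, Pmepa1 and Ltbp2, which the totals over all lists count once.

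Among the other ligands, 2 of 12 tested rose and 0 fell in ZXD over CON, and 1 rose and 1 fell in HFD over CON. Tgfb1, the main profibrotic ligand of the family, was 38.6 ± 27.6 CPM in ZXD and 9.54 ± 2.93 CPM in CON (SD, n = 5 each; log2 fold change 2.01, SE 0.48, edgeR adjusted p = 0.00704), and its call was lost without ZXD 3 and ZXD 4 (adjusted p = 0.0985). Bmp2, a BMP made by liver endothelium, was 14.03 ± 3.38 CPM in ZXD and 5.85 ± 3.26 CPM in CON (edgeR adjusted p = 0.0188, 0.0506 without CON 3). Gdf2, the gene of BMP9, made by stellate cells, was 17.3 ± 6.18 CPM in HFD and 32.3 ± 4.83 CPM in CON (edgeR adjusted p = 0.01002); it was not called on library totals (adjusted p = 0.0774) or without HFD 2 and HFD 5. Bmp4 was 3.96 ± 2.59 CPM in HFD and 1.56 ± 0.673 CPM in CON (edgeR adjusted p = 0.0445), a call that was lost without any 1 of 11 libraries: CON 1 to CON 5, HFD 2, HFD 3, HFD 5, ZXD 1, ZXD 3 and ZXD 5 (adjusted p up to 0.148). Inha, the alpha chain that turns activins into inhibins, held 0 to 9 counts in a library and was not tested.

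Of 18 tested binding proteins and co-receptors, 3 rose and 1 fell in ZXD over CON, and 1 rose and 0 fell in HFD over CON. Wfikkn2, a secreted binder of myostatin and GDF11, was 1.73 ± 0.885 CPM in ZXD, 1.81 ± 0.679 CPM in HFD and 0.278 ± 0.388 CPM in CON (SD, n = 5 each). Wfikkn2 is counted among these calls, but it held only 0 to 10 counts in the CON libraries and passed the filter through diet libraries. Its differences from CON are therefore a description, with no p. The fitted log2 fold change was 2.62 (SE 0.67) in ZXD over CON and 2.68 (SE 0.67) in HFD over CON. Fstl1, a follistatin-like glycoprotein, was 22.6 ± 5.37 CPM in ZXD and 12.4 ± 5.81 CPM in CON (edgeR adjusted p = 0.0336), lost without CON 2, CON 3, CON 5, ZXD 4 or ZXD 5 (adjusted p up to 0.0944). Rgmb, a BMP co-receptor, was 8.40 ± 3.28 CPM in ZXD and 4.23 ± 1.22 CPM in CON (edgeR adjusted p = 0.0198), lost without CON 3, CON 5, ZXD 3 or ZXD 4 (adjusted p up to 0.0557). Hfe2, the gene of hemojuvelin, a BMP co-receptor that controls hepcidin, was 51.6 ± 25.2 CPM in ZXD and 120 ± 56.0 CPM in CON (edgeR adjusted p = 0.0255), lost without CON 2, CON 3, CON 5, ZXD 3 or ZXD 4 (adjusted p up to 0.0677) and on library totals. Without ZXD 3 and ZXD 4, none of Fstl1, Rgmb and Hfe2 was called. Fstl3, the closest relative of follistatin, held 0 to 23 counts and was not tested.

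Of 9 other receptors tested, 0 rose and 1 fell in ZXD over CON and none was called in HFD over CON. Acvr1, a type 1 receptor also called ALK2, was 11.2 ± 0.500 CPM in ZXD and 20.4 ± 2.79 CPM in CON (log2 fold change -0.86, SE 0.17, edgeR adjusted p = 0.00237), with no overlap; on library totals it did not pass (adjusted p = 0.0608). The type 1 partners of activin receptors did not pass: Acvr1b was 13.1 ± 1.70 CPM in ZXD, 10.9 ± 1.11 CPM in HFD and 11.3 ± 1.53 CPM in CON, and Acvr1c was 3.43 ± 3.01 CPM in ZXD, 2.51 ± 1.16 CPM in HFD and 4.56 ± 0.506 CPM in CON.

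Among 18 tested SMADs and SMAD regulators, 5 rose and 2 fell in ZXD over CON, and 3 rose and 3 fell in HFD over CON. Of those that rose, Smad6, Smad7 and Skil in ZXD over CON and Smad7 in HFD over CON are counted again in the list of SMAD-responsive transcripts. Smad7, an inhibitory SMAD that shuts off type 1 receptors, was 24.8 ± 3.97 CPM in ZXD, 23.9 ± 8.51 CPM in HFD and 14.6 ± 3.29 CPM in CON (edgeR adjusted p = 0.0166 for ZXD over CON and 0.0339 for HFD over CON). In ZXD over CON the call of Smad7 held when any 1 library was left out, and in HFD over CON it was lost without HFD 2, HFD 4 or any of CON 2 to CON 5 (adjusted p up to 0.0762). Smad9, a SMAD of the BMP branch, was 1.53 ± 0.695 CPM in ZXD and 0.498 ± 0.152 CPM in CON. It is counted among the 5, but it held 4 to 8 counts in the CON libraries and passed the filter through diet libraries alone. Its difference from CON is therefore a description, with no p. Smurf1, a ubiquitin ligase for SMADs, was 26.1 ± 7.68 CPM in ZXD, 25.3 ± 3.63 CPM in HFD and 16.7 ± 4.01 CPM in CON (edgeR adjusted p = 0.0244 and 0.0459 against CON), lost without CON 2, CON 3, CON 5, ZXD 3 or ZXD 4 in ZXD over CON (up to 0.0767) and without CON 2, CON 3, CON 5, HFD 1, HFD 2, HFD 4, HFD 5, ZXD 3 or ZXD 5 in HFD over CON (up to 0.0999). Tgif1, a SMAD corepressor, was 39.3 ± 23.98 CPM in HFD and 14.1 ± 4.63 CPM in CON (edgeR adjusted p = 0.0302), lost without CON 1, CON 4, CON 5, HFD 2, HFD 3 or HFD 5 (adjusted p up to 0.0899).

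Zfyve9, the anchor that presents SMADs to receptors, was 38.3 ± 7.42 CPM in ZXD, 33.4 ± 4.34 CPM in HFD and 51.8 ± 3.50 CPM in CON (edgeR adjusted p = 0.0180 and 0.00390 against CON). Ppm1a, a SMAD phosphatase, was 71.3 ± 18.5 CPM in ZXD, 75.8 ± 10.7 CPM in HFD and 108 ± 5.91 CPM in CON (edgeR adjusted p = 0.0118 and 0.0361 against CON); the HFD call was lost without HFD 1, HFD 2, HFD 5 or any CON library (up to 0.0904). Smurf2, a relative of Smurf1, was 60.9 ± 7.00 CPM in HFD and 78.3 ± 6.19 CPM in CON (log2 fold change -0.36, edgeR adjusted p = 0.0333), lost without HFD 2, HFD 3, HFD 5 or any of CON 2 to CON 5 (up to 0.0942), and its sign turned on library totals (0.05). On library totals the falls of Zfyve9 and Ppm1a did not pass either. Without ZXD 3 and ZXD 4, none of Smad7, Smad9, Smurf1, Zfyve9 and Ppm1a was called in ZXD over CON, and without HFD 2 and HFD 5, none of Tgif1, Smurf1, Smurf2 and Ppm1a was called in HFD over CON. Smad2, Smad3 and Smad4, the SMADs that carry activin signals, did not pass in ZXD over CON, where they differed by -0.05, 0.23 and -0.16 on the log2 scale (edgeR adjusted p = 0.826, 0.299 and 0.365).

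Transcripts known to respond to SMAD signalling rose in 6 of 15 tested (40%) and fell in 1 (6.67%) in each comparison with CON. Over all genes 17.9% rose and 14.8% fell in ZXD over CON, and 10.0% rose and 10.9% fell in HFD over CON. The medians of the list were 0.54 in ZXD over CON and 0.71 in HFD over CON, beside 0.03 and 0.02 for all genes. Among the rises, Smad6, Smad7 and Skil in ZXD over CON and Smad7 in HFD over CON also stand in the SMAD list above. Id1, a direct target of the BMP branch, was 22.5 ± 11.5 CPM in ZXD, 32.6 ± 27.8 CPM in HFD and 5.01 ± 1.52 CPM in CON (edgeR adjusted p = 0.00511 and 0.00215 against CON). Hamp, which encodes hepcidin, was 627 ± 169 CPM in ZXD, 581.9 ± 144 CPM in HFD and 276 ± 112 CPM in CON (edgeR adjusted p = 0.00729 and 0.0172). Atoh8, a BMP-responsive factor, was 119 ± 34.4 CPM in HFD and 54.2 ± 9.38 CPM in CON (edgeR adjusted p = 0.00281). Tgfbi, a matrix protein named for its induction by TGF-beta, went down instead, at 152 ± 35.4 CPM in ZXD, 171 ± 39.6 CPM in HFD and 336 ± 48.9 CPM in CON (edgeR adjusted p = 0.00104 and 0.00321). The calls of Id1, Hamp, Atoh8 and Tgfbi held when any 1 library was left out. The number that rose was 4 to 7 in each comparison with 1 library left out. In ZXD over CON it was as low as 2 among all alternatives. There the call of Skil was lost without any 1 of 5 libraries, and that of Smad6 without any 1 of 9.

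To show which genes varied most like each of the 8 within groups, log2 CPM was centred on each group mean and correlated over the 15 libraries, with no test. Nearest to Fst were Gramd3, Snrpf and Myl12a (Pearson r = 0.901, 0.900 and 0.890). Nearest to Inhbb were Fes, Ppm1n and Tmtc1 (r = 0.970, 0.939 and 0.937), and nearest to Inhba were Armc6, Sf3b4 and Gripap1 (r = 0.862, 0.861 and 0.838). For Inhbc they were Sec62, Fbxl16 and St6gal1 (r = 0.844, 0.843 and 0.841), and for Inhbe Cstf2t, Mtmr7 and Ppip5k2 (r = 0.940, 0.911 and 0.909). For Acvr2a they were Mtdh, Sel1l and Slc7a2 (r = 0.968, 0.964 and 0.961), for Acvr2b Tbc1d32 and Tcf7l1 (r = 0.881 and 0.864), and for Bambi Ccdc175, Dazap2 and Reep6 (r = 0.885, 0.882 and 0.867). These are the extremes of 13163 genes that share library and depth. Between the 8 genes themselves, the centred values of Fst had r = 0.79 with Inhbb, -0.79 with Acvr2a, -0.68 with Acvr2b, -0.65 with Inhbe, -0.50 with Inhbc, 0.27 with Inhba and 0.02 with Bambi.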

How the data were processed

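Liver RNA was sequenced in 15 libraries, 5 each in ZXD, HFD and CON, grouped by the sample titles. The authors deposited 1 table of 21576 genes, with whole-number counts of reads and FPKM in each library, per the file headers; FPKM equalled the deposited count over gene length and library total in 100% of the values above 0, within 0.01%. Per the submitters' processing notes edgeR was among the tools, without its role. Sources used here do not give the aligner, counter, strand or genome build, so the coordinates of the table are not printed.

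Tests started from the counts: edgeR 4.0.16 in R 4.3.3, TMM factors, filterByExpr by group (minimum count 10, minimum total 15), 1 robust quasi-likelihood fit of all 15 libraries with group as the sole term (12 residual degrees of freedom), and Benjamini-Hochberg adjustment over 13163 genes, with calls under 0.05. Log2 CPM carries a prior count of 2. Standard errors are the log2 fold change over the square root of F. The fit was also run on simulated counts, and the outcome is not reported here. No 2 libraries were identical. Alternatives were RLE factors, library totals, 2 other filters, DESeq2 1.42.0, limma 3.58.1 voom, the replicate number as a block, only the compared groups, each library left out, and HFD 2 with HFD 5 left out; leaving out ZXD 3 with ZXD 4 was added after seeing the data.

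The 8 genes, the gene lists and the motifs were chosen with earlier results of these data known. Of each list the genes named are all those called if 5 or fewer, otherwise in each comparison the 3 with the smallest adjusted p in each direction; Inha, Fstl3, Acvr1b, Acvr1c, Smad2, Smad3 and Smad4 were named beyond this rule for their role, after their values were seen. Of the genes this rule names, 2 are not reported here.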

Additional observations from a re-analysis of the deposited data

Results flagged for a closer look

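Among 24 sets of 5 libraries, 8 genes in 3 groups, 1 library lay far from the rest of its group. Acvr2b was at 2.66 CPM in HFD 4, the highest of the HFD libraries, against 1.36 CPM in the next, HFD 1; the gap to the next library was a larger share of the whole range than Dixon's critical value allows. Chance flags about 1 set in 20. HFD 4 was also low in Fst, at 0.341 CPM, and in Inhbb, at 0.273 CPM.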

How the results depend on the processing

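In ZXD over CON, the directions of Bambi, Inhba, Inhbc, Acvr2a and Acvr2b were the same under every alternative that gave a value. The sign of Inhbe in ZXD over CON turned on library totals (0.0365). In ZXD over HFD, where no member was called under any alternative, the sign turned for Fst, Inhba, Inhbb, Inhbe and Acvr2b. Leaving out 1 library gave -1.80 to 0.0743 for Fst, -0.24 to 0.51 for Inhba and -0.18 to 0.27 for Inhbe. Inhbe was -0.0127 on library totals and -0.0072 with only the 2 groups compared. Without HFD 2 and HFD 5 the values were -0.27 for Inhba, -0.25 for Inhbe and -0.0263 for Acvr2b, and without ZXD 3 and ZXD 4 they were -0.73 for Inhba and -0.45 for Inhbb. Smurf2 in HFD over CON was 0.0544 on library totals. With only the 2 groups compared, Fst and Inhbb did not pass the filter against CON, so that fit gave no value.

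Over all genes, ZXD over HFD gave 0 calls, 216 higher and 132 lower with DESeq2, and 0 to 6 higher and 0 to 1 lower with 1 library left out (6 higher and 1 lower without HFD 1, and 1 lower without HFD 3). ZXD over CON gave 2356 higher and 1943 lower, 6046 and 628 on library totals, 1531 higher with limma voom, 720 and 896 without ZXD 3 and ZXD 4, and 1607 to 2514 higher and 1430 to 2166 lower with 1 library left out. HFD over CON gave 1322 higher and 1436 lower, 5390 and 505 on library totals, 793 higher with limma voom, 436 and 607 without HFD 2 and HFD 5, and 754 to 1630 higher and 925 to 1645 lower with 1 library left out; the higher count was lowest without HFD 2, HFD 5, CON 3 or CON 5 (754, 780, 809 and 809), and the lower count without CON 3, CON 4, HFD 2 or HFD 5 (925, 934, 943 and 950). The pathway counts were 13 higher and 5 lower in ZXD over CON, 29 and 1 on library totals, 4 and 2 without ZXD 3 and ZXD 4, and 7 to 14 and 4 to 6 with 1 library left out. In HFD over CON they were 10 and 5, 17 and 1 on library totals, 5 higher with limma voom, 5 and 2 without HFD 2 and HFD 5, and 5 to 12 and 3 to 6 with 1 library left out. The causes were not tested.

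Whether the replicate numbers pair the libraries was not settled, since pairs with different numbers were not compared. Of 15 same-numbered pairs, 4 had a correlation of deviations over 0.1, and the lowest was -0.55. Those 4 were HFD with CON in replicates 1, 2 and 3 (0.244, 0.215 and 0.260) and ZXD with HFD in replicate 1 (0.105). With the replicate block, HFD over CON gave 792 genes and 5 pathway genes higher.

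Without length scaling, in CPM, the median of Inhba ranked 7 in ZXD and 8 in HFD in place of 6 in each, Inhbb 5 in ZXD, 6 in HFD and 7 in CON in place of 7, 8 and 8, Acvr2b 6 in ZXD in place of 5, Acvr2a 3 and Bambi 4 in HFD in place of 4 and 3, and Fst 8 in CON in place of 7. Depth limits Fst and Inhbb in CON, at 5 summed counts each.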
